A study of Mus musculus with 10 samples.

Results

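The genes described here are 8 genes of the MHC class II antigen presentation pathway: the chain genes H2-Aa, H2-Ab1 and H2-Eb1, the invariant chain gene Cd74, the peptide-loading genes H2-DMa and H2-DMb1, the regulator gene Ciita and the protease gene Ctss. They are a list of symbols with no threshold on a measured value, and each symbol matched 1 of the 31053 gene identifiers listed for every library. They were read in 29532 alveolar cells in which no Ptprc transcript was counted, out of 32698 cells that passed the quality filters. Ptprc encodes CD45, the surface protein of immune cells, which are the main other carriers of class II molecules in lung.

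MHC class II molecules are heterodimers of an alpha and a beta chain that display peptides from the endosomal pathway to CD4+ T cells. The chains assemble on the invariant chain, which fills the peptide groove until endosomal proteases such as cathepsin S trim it and H2-DM exchanges the remaining fragment for a peptide. Dendritic cells, macrophages and B cells are the professional presenting cells, and alveolar type 2 (AT2) cells, the surfactant-producing progenitors of the distal lung, are an epithelial type that also carries class II molecules.

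On GRCm38 with the GENCODE M21 annotation, H2-Ab1 lies on chromosome 17 at 34257689-34269419, H2-Aa at 34282744-34287823 on the minus strand and H2-Eb1 at 34305867-34316674. H2-DMa at 34119541-34139101 and H2-DMb1 at 34153072-34160230 lie on the same chromosome. Ciita lies on chromosome 16 at 10480059-10528418 and Ctss on chromosome 3 at 95526786-95556403. All 8 genes are annotated as protein coding, and counts were made over whole genes. H2-DMb1 has a close copy in H2-DMb2 and H2-Eb1 in H2-Eb2, so the split of reads within each of these pairs is less certain than the other counts.

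CIITA binds no DNA itself and acts at class II promoters through proteins bound to an X box and a Y box, a pair of short elements at a nearly fixed distance. The 250 bases before the start of a gene were searched in RefSeq promoter windows (GRCm38.p6), which held 5 of the 8 genes and 4 other class II genes. The Y box was taken as TGATTGG, which occurred on either strand in 2375 of 32851 windows (7.23%). The X element was taken as GNAAC starting 25 to 40 bases before TGATTGG on the same strand, and the pair occurred in 119 windows (0.362%). The letters and the distance were set after these windows had been read. The pair was found in H2-Aa, H2-Eb1 and H2-DMb1 at a distance of 31, 30 and 31 bases, and in H2-Eb2, H2-Oa and H2-Ob at 30, 31 and 28 bases. H2-DMb2 held TGATTGG alone, and neither H2-DMa nor Ctss held these letters. The bases next to the start are shown for H2-Aa and H2-Eb1, which were abundant in these cells, and for H2-Ob, which was nearly absent from them although it holds the same pair. Capitals mark GNAAC and TGATTGG, and each run reads toward the gene on its own strand, at chr17:34287824-34287953 (minus), chr17:34305737-34305866 (plus) and chr17:34238775-34238902 (plus).
H2-Aa: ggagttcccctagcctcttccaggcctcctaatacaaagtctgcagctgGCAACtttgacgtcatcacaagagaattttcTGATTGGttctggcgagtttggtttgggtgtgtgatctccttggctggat
H2-Eb1: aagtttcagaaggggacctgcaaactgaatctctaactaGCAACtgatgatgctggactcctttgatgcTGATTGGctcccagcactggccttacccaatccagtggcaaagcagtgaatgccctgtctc
H2-Ob: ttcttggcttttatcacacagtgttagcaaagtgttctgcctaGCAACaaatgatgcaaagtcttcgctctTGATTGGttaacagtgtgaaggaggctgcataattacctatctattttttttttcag

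The cells came from adult mice of 8 weeks, of both sexes, on a mixed C57BL/6Brd-Tyrc-Brd background. In all mice Sftpc-CreERT2, a tamoxifen-activated recombinase driven by the promoter of an AT2 surfactant gene, switched on a colour label after 3 doses of 0.2 mg tamoxifen per g body weight. At least 2 lungs were pooled per library, and EpCAM+ epithelial cells that carried RFP or YFP were sorted. In Sftpc-CreERT2;Red2Kras mice an RFP+ cell is a mutant cell while a YFP+ cell of that genotype of mouse is wildtype, and in Sftpc-CreERT2;R26R-Confetti mice both colours are wildtype. Red2Kras RFP+ and YFP+ cells were collected at 4 days, before tamoxifen had fully washed out, and at 2 weeks, with 2 libraries in each group. Confetti RFP+ and YFP+ cells gave 1 library each. Confetti has no time in the labels and was taken at 2 weeks by the study's methods, so time and genotype both separate it from the 4-day groups. The sex of the cells, read from their transcripts below, also separates it from the Red2Kras libraries. Nothing in the labels says which animals stand behind a replicate number, so p-values measure the spread between these libraries only.

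Each library held 10742481 to 79927159 UMIs (counted transcript molecules) and gave 1005 to 4220 alveolar cells with a median of 3251 to 15799 UMIs per cell, and the 2 deepest libraries were both 2 weeks RFP. All 8 AT2 markers were present in every library, with Sftpc at 65511 to 162495 UMIs per 1000000, but the levels differed. In 4 days RFP replicate 2 and both 2 weeks RFP libraries Sftpc was at 65511, 70197 and 69882 against at least 109137 elsewhere, and Abca3, Slc34a2, Etv5, Lpcat1 and Sftpa1 were also lower in these 3 than in the other 7. Lamp3 was lowest in 2 weeks RFP replicate 2 and Sftpb in 4 days RFP replicate 2. Replicates differed in makeup: of the cells with transcripts of either Xist or Y-linked genes but not both, 0.05214% to 0.5376% had Xist in the libraries labelled replicate 2, against 25.77% to 85.13% in those labelled replicate 1 and 100% in Confetti. The 8 immune markers together reached 48.24 to 77.2 UMIs per 1000000, mostly Lcp1 (273 of 353 UMIs in 2 weeks YFP replicate 2 and 2214 of 2652 in 2 weeks RFP replicate 2), with Ptprc at 0 by the gate and Tyrobp at 4 to 120 UMIs per library. At most 12 cell barcodes were shared by any pair of libraries.

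The chain genes, Cd74 and the H2-DM genes were well counted in wildtype AT2-derived cells, and their lowest levels were in mutant libraries. Levels are UMIs summed over the alveolar cells of a library, per 1000000 UMIs after trimmed-mean (TMM) scaling, written CPM below. They are compared between libraries and not between genes. In such sums fewer cells of a type and less RNA per cell cannot be told apart.

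Cd74, the invariant chain, stood at 6521 and 5652 CPM in Confetti RFP and YFP. It was at 7133 and 6686 CPM in the 4 days YFP libraries and at 5770 and 7900 CPM in the 2 weeks YFP libraries. In mutant cells it was at 7117 and 3713 CPM at 4 days and at 4154 and 3170 CPM at 2 weeks. Thus 1 RFP library, 4 days RFP replicate 1, lay among the wildtype values and the other 3 lay below all 6 of them. Ordered by group mean, Cd74 was at 6909 ± 316 CPM (SD, n = 2) in 4 days YFP, 6835 ± 1506 (n = 2) in 2 weeks YFP, 6087 ± 614.5 (n = 2) in Confetti, 5415 ± 2407 (n = 2) in 4 days RFP and 3662 ± 695.8 (n = 2) in 2 weeks RFP. Each group overlapped its neighbour in that order.

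The alpha chain gene H2-Aa showed the same split. The 4 days YFP libraries held it at 1300 and 955.6 CPM, the 2 weeks YFP libraries at 830.2 and 991.2 CPM and Confetti at 1095 and 930.5 CPM. It was at 1262 and 499.8 CPM in 4 days RFP and at 628.7 and 467.2 in 2 weeks RFP, so the same 3 mutant libraries lay below all wildtype ones. The beta chain gene H2-Ab1 was at 880.8 and 760.8 CPM in Confetti and at 781 to 1061 CPM in the 4 Red2Kras YFP libraries. Its mutant values were 1075 and 494.6 CPM at 4 days and 571.3 and 482.4 CPM at 2 weeks. H2-Eb1, the beta chain of the other class II isotype, was at 517 to 825.6 CPM in the 6 wildtype libraries, with mutant values of 852.8, 374.4, 381.2 and 292.9 CPM in the same order.

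H2-DMa, the alpha chain of the loading factor, was at 112 and 96.54 CPM in Confetti and, in Red2Kras YFP, at 125.3 and 150.4 CPM on day 4 and 107.1 and 151.3 CPM after 2 weeks. It was at 127.7 and 77.83 CPM in 4 days RFP and at 74.87 and 72.21 in 2 weeks RFP, again with 3 mutant libraries below all wildtype ones. Its partner H2-DMb1 did not separate in this way. It was at 132 to 215 CPM in the 6 wildtype libraries and at 190.8, 95.05, 137 and 153.4 CPM in the 4 mutant ones, 3 of which lay inside the wildtype range.

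Ciita, the regulator of the pathway, was counted at low levels and followed the others less closely. Confetti held it at 8.573 and 8.973 CPM, the 4 days YFP libraries at 15.3 and 14.52 CPM and the 2 weeks YFP libraries at 11.91 and 12.89 CPM. It was at 15.16 and 7.911 CPM in 4 days RFP and at 8.742 and 13.03 in 2 weeks RFP, so that mutant and wildtype values overlapped. Ctss was close to absent, at 0 to 1.404 CPM, with 103 UMIs over all 10 libraries, 57 of them in 2 weeks RFP replicate 2. The plot of levels by library shows the common pattern of the chain genes, Cd74 and H2-DMa and the different ones of Ciita and Ctss.

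**Figure D1:**
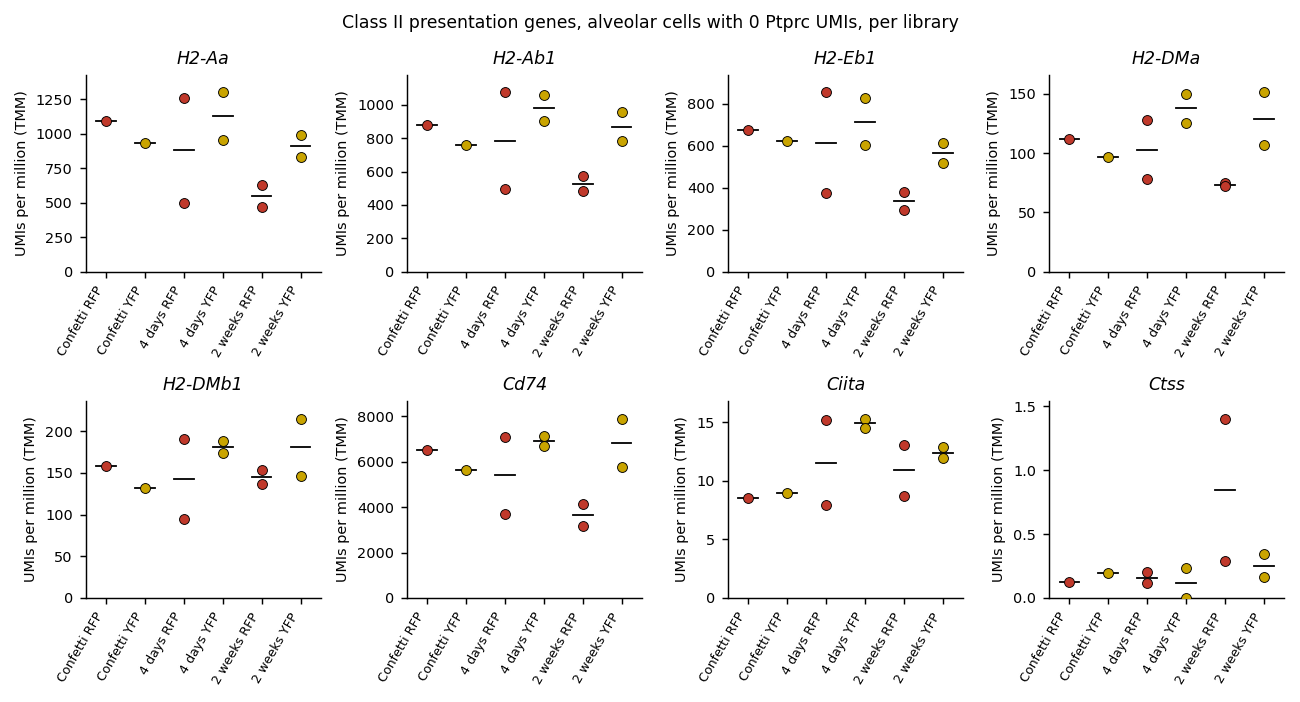
CPM after TMM scaling (y axis, linear from 0) of each gene in the 6 groups (x axis), 1 point per library, red for RFP and yellow for YFP, with a bar at the group mean. Cd74, H2-Aa, H2-Ab1, H2-Eb1 and H2-DMa are lower in both 2 weeks RFP libraries than in every wildtype library, while the 2 libraries of 4 days RFP lie far apart.

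Mutant and wildtype cells of Red2Kras mice were compared first over both times, with 4 RFP and 4 YFP libraries and a term for time (edgeR's quasi-likelihood test, Benjamini-Hochberg adjustment over 13194 genes). All 7 members tested were lower in RFP by estimate, beside 52.2% of all genes, and none passed an adjusted p of 0.05. None of the other genes tested passed either (0%) in this fit, which held no replicate term. DESeq2 passed 1297 genes and edgeR with no filter on low counts 1944, again with no member among them. At an unadjusted p under 0.05 there were 2 members, both lower in RFP, beside 9.93% of all genes that were lower at that level and 21.6% in either direction. The member estimates had a median of -0.54 (log2) against -0.0236 over all genes.

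The estimate for H2-DMa was a log2 fold change of -0.64 ± 0.223 (SE), with an adjusted p of 0.148 and RFP lower in 14 of the 16 pairs of an RFP and a YFP library. Cd74 was at -0.64 ± 0.283 with an adjusted p of 0.228, also lower in 14 of 16 pairs. H2-Aa was at -0.56 ± 0.307 (adjusted p = 0.326), H2-Ab1 at -0.54 ± 0.272 (adjusted p = 0.288) and H2-Eb1 at -0.50 ± 0.294 (adjusted p = 0.36). H2-DMb1 at -0.34 ± 0.246 and Ciita at -0.29 ± 0.233 were closest to 0, with adjusted p of 0.453 and 0.51. No member had RFP and YFP libraries free of overlap, beside 9.15% of all genes. A block for the replicate number let 929 genes pass, and still none of the members. Without 4 days RFP replicate 1 the median of the members moved to -0.82, 1468 genes passed and H2-DMa was the member among them, at -0.82 with an adjusted p of 0.038. The median was -0.36 without 4 days RFP replicate 2, and leaving out any other library gave -0.609 to -0.403. These medians include Ctss where it then passed the filter.

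At 4 days RFP replicate 2 was below both YFP libraries for 7 of the 8 members, all but Ctss, while RFP replicate 1 was below both for none. By estimate 7 of 8 members were lower in RFP, beside 50.4% of all genes, with a median log2 fold change of -0.345. None had an unadjusted p under 0.05, beside 5.73% of all genes, and none was free of overlap between the colours, beside 31.8% of all genes. No gene passed the adjusted threshold in edgeR (0%), and DESeq2 passed 109 genes and no member. Leaving out RFP replicate 1 moved the median to -0.918 and leaving out RFP replicate 2 moved it to 0.104, so the direction rested on replicate 2.

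At 2 weeks both RFP libraries were below both YFP libraries for 5 of the 8 members, H2-Aa, H2-Ab1, H2-Eb1, H2-DMa and Cd74, beside 25.1% of all genes. Cd74 had a log2 fold change of -0.90 ± 0.404 (SE), an adjusted p of 0.312 and RFP lower in 4 of 4 pairs. H2-DMa was at -0.81 ± 0.319 (adjusted p = 0.277), H2-Eb1 at -0.75 ± 0.42 (adjusted p = 0.387), H2-Aa at -0.73 ± 0.451 (adjusted p = 0.429) and H2-Ab1 at -0.72 ± 0.396 (adjusted p = 0.378). H2-DMb1 at -0.31 ± 0.369 and Ciita at -0.19 ± 0.345 overlapped between the colours, and H2-DMb1 was at -0.585 without 2 weeks YFP replicate 1 and at -0.00706 without 2 weeks YFP replicate 2. No member passed edgeR's adjusted threshold, nor did any other gene (0%), with a smallest adjusted p of 0.0531, and 1 member, H2-DMa, was under 0.05 unadjusted, beside 16.3% of all genes. DESeq2 passed 471 genes and no member. The change of the RFP to YFP difference from 4 days to 2 weeks had a median of -0.383 over the members and an adjusted p of 1 for each in edgeR (median 0.351 without 4 days RFP replicate 1, -0.775 without 4 days RFP replicate 2 and -0.174 without 2 weeks YFP replicate 2), with no gene passing in edgeR or DESeq2 and no member at an unadjusted p under 0.05, beside 1.55% of all genes.

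Each Red2Kras group was also set against the 2 Confetti libraries as the wildtype of lungs without mutant cells. These comparisons share their controls, so their values are given side by side only. They also differ in sex: cells with Y-linked transcripts alone were absent from both Confetti libraries and present in every Red2Kras library. For 2 weeks RFP the median log2 fold change of the members was -0.568, and 0 of 8 passed edgeR's adjusted threshold, beside 5.35% of all genes. None was at an unadjusted p under 0.05 either, beside 31% of all genes. The same 5 members were lower in every 2 weeks RFP library than in both Confetti libraries, beside 36.2% of all genes. The estimates were -0.94 ± 0.421 (SE) for H2-Eb1 (adjusted p = 0.169), -0.88 ± 0.452 for H2-Aa (adjusted p = 0.218), -0.73 ± 0.403 for Cd74 (adjusted p = 0.249), -0.64 ± 0.395 for H2-Ab1 and -0.50 ± 0.318 for H2-DMa. H2-DMb1 was at 0.01 ± 0.368 and Ciita at 0.31 ± 0.344. The member medians were -0.0382 for 4 days RFP, 0.241 for 2 weeks YFP and 0.224 for 4 days YFP. These rested on single libraries: for 4 days RFP the median was -0.655 without its replicate 1 and 0.387 without its replicate 2, for 2 weeks YFP it was -0.0313 without its replicate 2 and 0.128 without Confetti YFP, and for 4 days YFP it was 0.35 without its replicate 2. No member passed in any of the 3, beside 0%, 0.0436% and 0.0291% of all genes. At an unadjusted p under 0.05 there was again no member in these 3, beside 8.73%, 5.57% and 1.82% of all genes, and DESeq2 passed none of the members in any comparison with Confetti.

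The 29532 cells were clustered without the class II genes, and the levels of the members were then read in each cluster as a description. These levels are CPM of the cluster's own total, without scaling. AT2-like, primed AT2-like and cycling clusters held Cd74 at 4599 to 7146 CPM, apart from 1 cluster described below. The cluster led by Meg3 and Dlk1, left unnamed, held it at 4749 CPM. A DATP-like cluster of 1566 cells led by Aldh1a3 and F3 (damage-associated transient progenitors, an intermediate between AT2 and AT1 cells in repair) held it at 543.4 CPM, and a smaller DATP-like cluster of 337 cells led by Gzme and Spp1 at 1478 CPM. The AT1-like cluster, cells with markers of the flat gas-exchange type, held 1642 CPM.

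The other members with enough counts were also lower in the DATP-like and AT1-like clusters than in the AT2-like, primed and cycling ones. H2-Aa was at 729.6 to 1262 CPM in the AT2-like, primed and cycling clusters outside that 1 cluster, at 51.3 and 103.3 CPM in the DATP-like clusters and at 137.3 CPM in the AT1-like cluster. H2-DMa was at 90.93 to 129.3 CPM in the former and at 7.906, 17.82 and 21.5 CPM in the latter 3. Ciita was at 9.268 to 13.15 CPM, then at 0.6815 and 1.768 CPM in the DATP-like clusters but at 7.348 CPM in the AT1-like cluster. H2-DMb1 was at 150.2 to 187.5 CPM in the former against 26.99 and 78.66 CPM in the DATP-like clusters and 73.62 CPM in the AT1-like cluster. The Meg3 and Dlk1 cluster held H2-DMb1 at 222 CPM and Ciita at 19.08 CPM, above all of these.

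The gap was also present within a library, at different widths. In 4 days RFP replicate 2, Cd74 was at 6858 CPM in 51 AT2-like cells and at 342.2 CPM in 512 DATP-like cells, a ratio of 20.04. In 2 weeks RFP replicate 1 it was at 6372 CPM in 280 AT2-like cells and at 937.8 CPM in 806 DATP-like cells, a ratio of 6.795. For H2-Ab1 these ratios were 20.66 and 9.526, and for H2-DMb1 13.34 and 3.704. In 2 weeks RFP replicate 2, where too few AT2-like cells were present for a ratio, 509 DATP-like cells held Cd74 at 571.4 CPM, 596 AT1-like cells at 1574 CPM and 1437 cells of the Meg3 and Dlk1 cluster at 4726 CPM. These levels depended on how finely cells were clustered and which clusters took a name: at a Louvain resolution of 1.5 in place of 0.8 the median over libraries went from 571.4 to 1112 CPM for DATP-like cells and from 1574 CPM (1 library) to 7092 CPM (5 libraries) for clusters named AT1-like. At 1.5 that name also covered a cluster of 1119 cells led by Meg3 and one of 255 cells led by Sprr1a. The Hopx-led AT1-like cluster had 669 cells at 0.8 and 665 at 1.5, before the Ptprc gate.

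**Figure D2:**
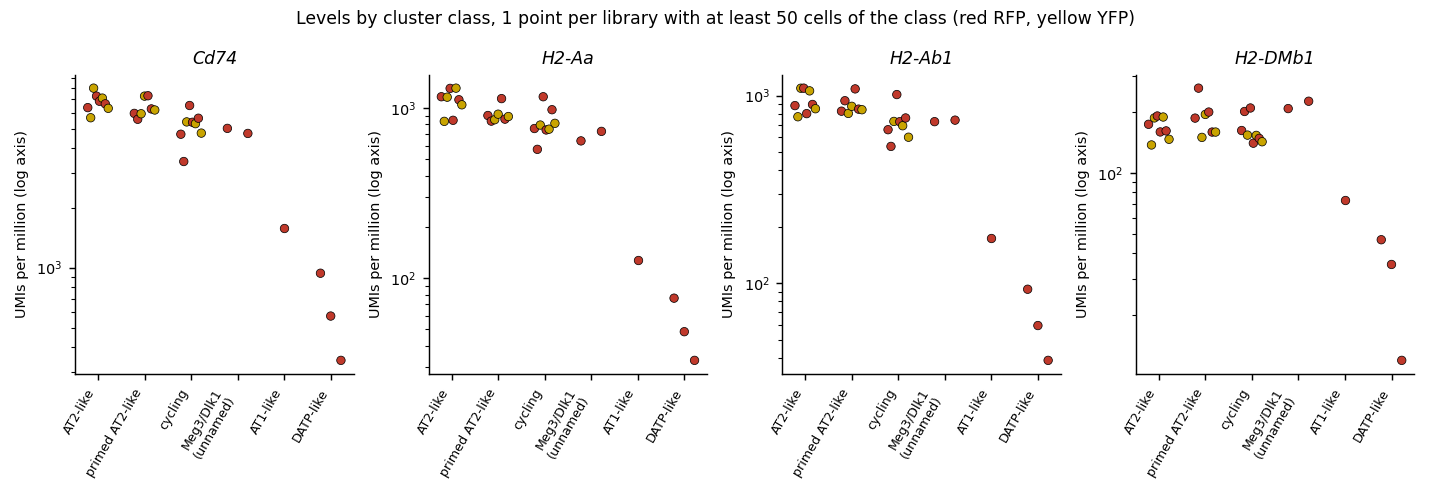
CPM (y axis, log scale) of Cd74, H2-Aa, H2-Ab1 and H2-DMb1 in each class of cluster (x axis), 1 point per library with at least 50 cells of the class, red for RFP and yellow for YFP. The AT2-like and primed AT2-like points lie together in both colours, and the 3 DATP-like points, all from RFP libraries, lie far below them.

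DATP-like cells made up 35.83% of the alveolar cells in 4 days RFP replicate 2, 19.97% and 18.45% in the 2 weeks RFP libraries, 0.9962% in 4 days RFP replicate 1 and 0% to 1.493% in the 6 wildtype libraries. AT1-like cells made up 21.6% of 2 weeks RFP replicate 2 and at most 1.393% elsewhere. The 3 libraries with low class II levels were thus those with at least 18.45% DATP-like cells, though the lowest Cd74 level was in the 1 of them with the smallest share, and the comparison was repeated in AT2-like and primed AT2-like clusters alone, an alternative chosen after the data were seen. There Cd74 was at 7326 and 6637 CPM in the RFP and 6995 and 6958 CPM in the YFP libraries of 4 days, at 5709 and 5407 CPM in the RFP and 5828 and 8777 CPM in the YFP libraries of 2 weeks, and at 6476 and 5643 CPM in Confetti. The 4 days RFP libraries were now close to each other, and the 2 weeks RFP values were lower than those of both YFP libraries by a smaller gap. Different clusters made up the 4-day replicates. The RFP libraries had 3322 AT2-like and 110 primed cells in replicate 1, against 51 and 681 in replicate 2. The 4 days YFP libraries had 1609 and 36 in replicate 1, against 42 and 2531 in replicate 2.

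In these clusters the RFP to YFP log2 fold change over both times was -0.18 ± 0.213 (SE) for Cd74 (edgeR, adjusted p = 0.87), -0.14 ± 0.205 for H2-DMa, -0.07 ± 0.21 for H2-Aa and -0.04 ± 0.198 for H2-Ab1. It was 0.01 ± 0.204 for H2-Eb1, 0.05 ± 0.205 for H2-DMb1 and 0.00 ± 0.157 for Ciita. The median went from -0.54 to -0.0394, with 0 of 7 members passing beside 0.285% of all genes. At 2 weeks Cd74 was at -0.39 ± 0.315 (adjusted p = 0.695) and the median was -0.104, with 0 of 8 members passing beside 0.128% of all genes. The 2 weeks RFP replicate 2 library contributes few cells here, 35 AT2-like and 66 primed AT2-like, and different clusters stand for the primed class in the 2-week groups: 88.97% of a cluster of 1705 cells (before the Ptprc gate) came from 2 weeks RFP replicate 1 and 83.89% of one of 3278 cells, led by the heat-shock gene Hspa1b, from 2 weeks YFP replicate 1. Haemoglobin genes led the largest AT2-like cluster and the stress genes Nfkbia and Atf3 another. The restriction left out the DATP-like, AT1-like, cycling and Meg3 and Dlk1 clusters together, and the last made up 52.08% of 2 weeks RFP replicate 2, so the part of any 1 of them was not tested.

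**Figure D3:**
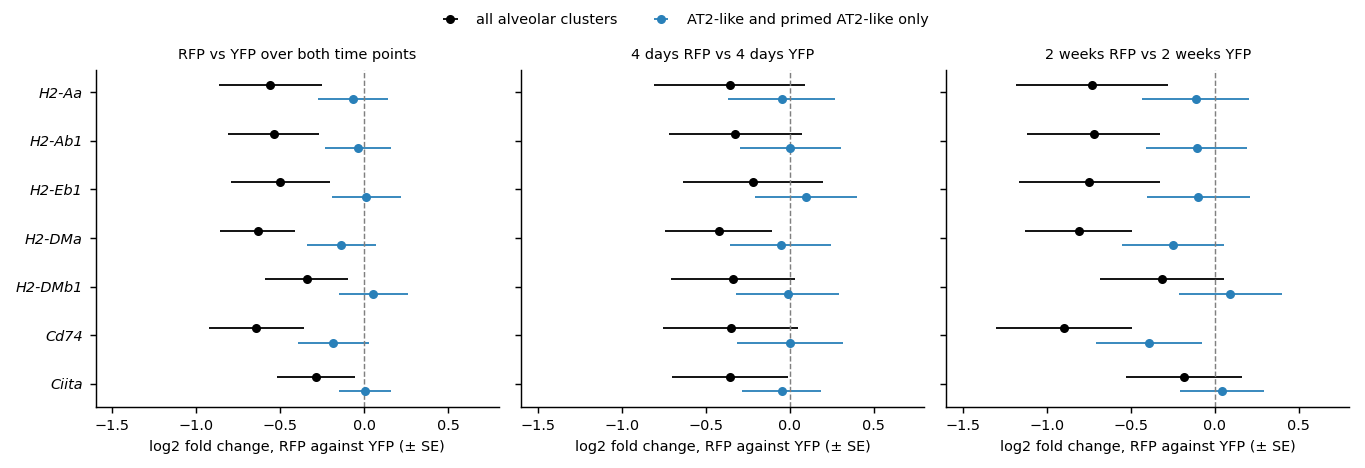
Log2 fold change of RFP against YFP libraries (x axis, ± SE) for 7 genes (y axis), over both times (4 against 4 libraries), at 4 days and at 2 weeks (2 against 2 each), in all alveolar clusters (black) and in AT2-like and primed AT2-like clusters alone (blue). The black estimates lie below 0 and the blue ones close to 0, with Cd74 at 2 weeks at -0.39 as the lowest blue point.

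A cluster of 374 cells led by Ccl20, Iigp1 and Isg15, genes of the interferon and inflammatory responses, scored as primed AT2-like and held more class II transcript than any other alveolar cluster. Cd74 was at 10876 CPM there, H2-Aa at 1638, H2-Ab1 at 1780 and H2-Eb1 at 1266 CPM. H2-DMa at 307.1 CPM and Ciita at 39.23 CPM were also above every other alveolar cluster, for which the highest values were 129.3 and 19.08 CPM. H2-DMb2, the copy of H2-DMb1, was at 95.26 CPM against 0 to 11.42 CPM in the other clusters. H2-Oa, the alpha chain of the H2-DM inhibitor H2-O, was at 32.22 CPM (92 UMIs) against 0 to 1.04 CPM, while its partner H2-Ob had 1 UMI. Tyrobp had 1 UMI in these cells and Ctss 1 UMI, and 37.17% of them came from 4 days YFP replicate 2. Because clusters were defined on other genes of the same cells, none of these differences was tested.

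Single cells were compared after each was thinned to 2000 UMIs, which left out 18 of the 29532 cells, at most 6 in any library. A Cd74 UMI was found in 99.76% and 99.85% of Confetti RFP and YFP cells and in 98.41% to 99.8% of cells in the 4 Red2Kras YFP libraries. It was found in 99.27% and 69.17% of cells in the 4 days RFP libraries and in 86.88% and 80.01% in the 2 weeks RFP libraries, where the exact (Clopper-Pearson) 95% intervals were 66.7% to 71.56% for the second 4-day library and 85.8% to 87.91% and 78.47% to 81.49% at 2 weeks. Without thinning these 4 shares were 99.46%, 71.8%, 94.7% and 86.88%. The intervals cover counting error only. The same 3 mutant libraries thus held cells with no Cd74 UMI at this depth that wildtype libraries nearly lacked, and part of those cells had one before thinning.

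Free RNA in the droplets sets a floor under such shares. A discarded cluster of 255 cells led by the secretoglobin genes Scgb1a1 and Scgb3a2 and the cilium gene Rsph1, left unnamed, had a Cd74 UMI in 28.69% of cells (median depth before thinning 5864 UMIs) and a Ctss UMI in 7.968%. The endothelial-like clusters, which can carry some class II themselves, had a Cd74 UMI in 44.47% (3643 UMIs). The larger DATP-like cluster had a Cd74 UMI in 23.94% of cells (median depth 11055 UMIs), below both, although the depths differ and neither reference is known to lack the gene. Its ratio of Sftpc to Cd74 UMIs was 8.916, against 16.11 to 24.44 in the AT2-like and primed clusters outside the interferon-gene one, and the part of free RNA in its Cd74 counts was not tested. The AT1-like cluster at 70.01% was above both and the smaller DATP-like cluster at 55.79% was above them too, with median depths of 9485 and 19307 UMIs.

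Per cell, the median Cd74 count at 2000 UMIs was 13 and 12 in Confetti, and 14 and 11 (4 days) and 10 and 13 (2 weeks) in the Red2Kras YFP libraries. It was 14 and 8 in 4 days RFP and 9 and 6 in 2 weeks RFP. The share of cells with 0 or 1 Cd74 UMI was 0.5325% to 1.99% in the 6 wildtype libraries. It was 0.9696% in 4 days RFP replicate 1 and 33.57%, 16.36% and 26.37% in the other 3 RFP libraries. In 4 days RFP replicate 2 the lower quartile was 0 while the median was 8, so low and high cells stood side by side in 1 library. H2-Aa was found in 74.18% to 88.98% of cells in the wildtype libraries and 4 days RFP replicate 1, and in 51.23%, 62.81% and 47.66% in the other 3. Ciita was found in only 1.632% to 2.72% of cells in each library, a share too low at this depth to divide the cells.

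**Figure D4:**
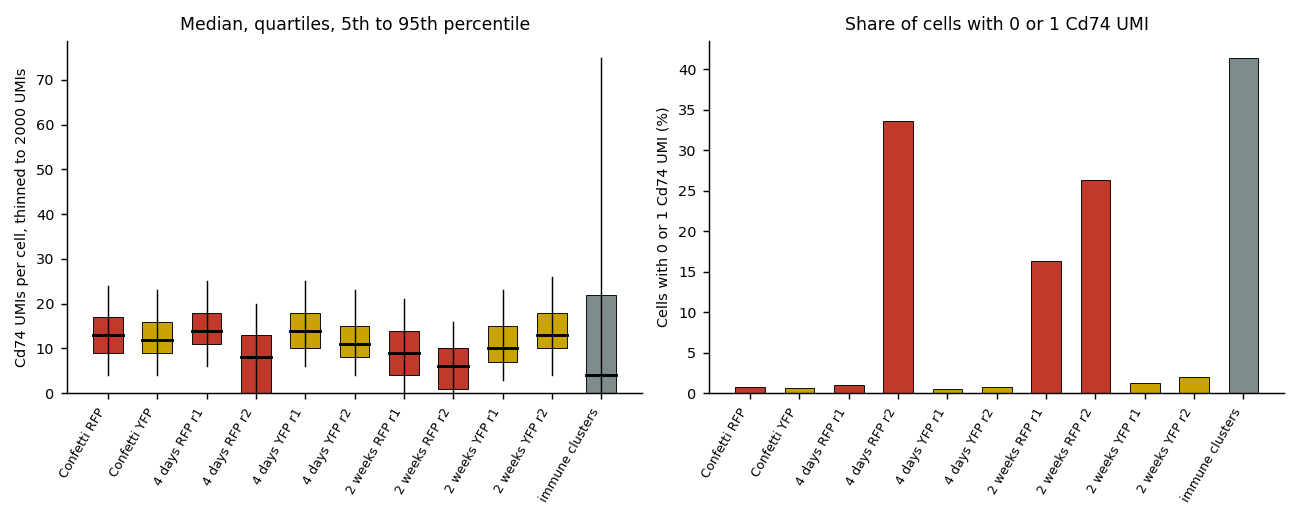
Left, Cd74 UMIs per alveolar cell at 2000 UMIs (y axis) in each library (x axis) and in the discarded immune clusters (grey), with the median as a thick line, quartiles as a box and the 5th to 95th percentile as a thin line. Right, the percent of cells with 0 or 1 Cd74 UMI, which reaches 33.57% in 4 days RFP replicate 2 and stays at or below 1.99% in every wildtype library.

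In mutant cells Cd74 was lowest where Sftpc, the surfactant gene whose promoter drives the label, was lowest. Sets of under 50 cells were left out, so wildtype cells with low Sftpc were read only in 2 weeks YFP and Confetti YFP. Their medians were close to the rest or above them. Among cells with 0 to 9 Sftpc UMIs at 2000 UMIs, 2316 in number, the median Cd74 count was 0 and 75.17% had 0 or 1. With 10 to 49 Sftpc UMIs (570 cells) the median was 5, with 50 to 99 (855 cells) it was 9, and at 300 or more (7395 cells) it was 12 with 0.3516% at 0 or 1. Of the cells lowest in Sftpc, 1585 were 2 weeks RFP and 554 were 4 days RFP, with a median of 0 in both groups. The 94 such cells of 2 weeks YFP were different, with a median Cd74 count of 10, though 31.91% were at 0 or 1 against 0.4163% at 300 or more Sftpc UMIs. Cells of that group with 50 to 99 Sftpc UMIs had a median of 18.5 (58 cells) against 11 at 300 or more. In Confetti YFP the median was 12 with 50 to 99 Sftpc UMIs and 12.5 at 300 or more, and the lowest Sftpc group was mostly RFP cells. Cells are not replicates and share their libraries, so this is a description.

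**Figure D5:**
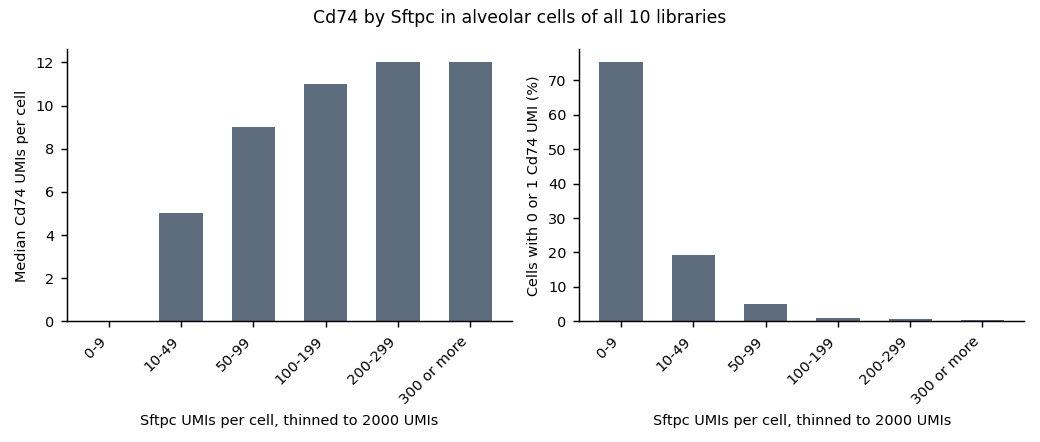
Alveolar cells of all 10 libraries, each thinned to 2000 UMIs, grouped by their Sftpc count (x axis), with the median Cd74 count per cell (left) and the percent of cells with 0 or 1 Cd74 UMI (right). The median goes from 0 in the lowest Sftpc group to 12 in the highest, and the percent from 75.17 to 0.3516.

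Ctss, which encodes the protease cathepsin S of the invariant chain's last steps, was an immune gene in these data. The discarded immune clusters held 2307 CPM of Ctss and a Ctss UMI in 86.49% of thinned cells, whereas alveolar cells had one in 0% to 0.3627% per library. In 4 days YFP replicate 1 no cell had one, which allows a share of up to 0.1775% with a UMI at this depth and sets no limit on cells that express the gene below it. Alveolar clusters ranged from 0 CPM to 2.177 CPM in the AT1-like one, where Tyrobp was at 1.905 CPM. By contrast a discarded immune cluster led by Cst3 and Ccl17 (238 cells) held Cd74 at 26721 CPM and the C1q macrophage-like cluster (436 cells) at 22762 CPM, above all alveolar clusters. The larger alveolar macrophage-like cluster (1304 cells) held only 1456 CPM, with Ctss at 2629 CPM. Of all Cd74 UMIs counted in cells that passed the filters, 1205899 were in the alveolar cells, 3545 in the 55 alveolar cells with a Ptprc UMI and 150079 in the discarded clusters, and for Ctss the numbers were 103, 57 and 48041.

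The further class II genes were low in alveolar cells as a whole. H2-DMb2 was at 3.985 and 3.275 CPM in Confetti and at 7.09 to 15.47 CPM in all Red2Kras libraries except 2 weeks RFP replicate 2 at 3.522. Against Confetti its log2 fold change was 1.84 ± 0.413 (SE) in 4 days RFP (edgeR, adjusted p = 0.463), 1.75 in 4 days YFP (adjusted p = 1) 1.20 in 2 weeks YFP (adjusted p = 0.768) and 0.61 ± 0.402 in 2 weeks RFP (adjusted p = 0.329). The last was -0.06 without 2 weeks RFP replicate 1, and 1.92 in AT2-like and primed AT2-like clusters (adjusted p = 0.0196). H2-Eb2 was at 0.3694 to 2.535 CPM, H2-Oa at 0.1478 to 3.025 CPM and H2-Ob at 0 to 0.1891 CPM, too low to be tested. H2-Ea and H2-Ea-ps were not analysed here. Of the 3 tested, none passed for RFP against YFP at 2 weeks or over both times, and all 3 were below 0. H2-Oa was at -2.33 ± 0.874 at 2 weeks (adjusted p = 0.263), with 1 library, 2 weeks YFP replicate 1, holding the highest level. Without that library it was at -0.76, and without 2 weeks RFP replicate 1 at -3.68. With no filter on low counts it passed, at -2.28 (adjusted p = 0.0426) at 2 weeks and -1.51 (adjusted p = 0.0456) over both times.

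Genes around the pathway were read from lists, again against 0% of all genes passing in edgeR. Of 10 endosomal processing genes 9 were tested and none passed in edgeR for RFP against YFP over both times or at 2 weeks. At an unadjusted p under 0.05 there were 2 higher and 1 lower over both times, and 2 higher and 0 lower at 2 weeks, beside 21.6% and 16.3% of all genes in either direction. The cathepsin genes Ctsl and Ctsd were higher in RFP by estimate. Ctsl was at 90.78, 84.24, 111.2 and 181.4 CPM in the YFP libraries and at 97.45, 244.1, 278.9 and 464.7 CPM in the RFP libraries. Its log2 fold change over both times was 1.13 ± 0.319 (adjusted p = 0.103). It was 1.06 with an adjusted p of 0.0432 under the replicate block. With 1 library left out it was 0.883 to 1.40 with an adjusted p of 0.0172 to 0.272, under 0.05 only without 4 days RFP replicate 1. It also passed in DESeq2 (0.00928) and, with no filter on low counts, over both times (0.000219) and at 2 weeks (0.00487). In AT2-like and primed AT2-like clusters alone Ctsl turned to -0.23 (adjusted p = 0.747). Against Confetti, at 84.22 and 75.13 CPM, Ctsl was the 1 gene of this list that passed, at 2.22 ± 0.492 in 2 weeks RFP (adjusted p = 0.0462, beside 5.35% of all genes). Leaving out 1 library gave 1.78 to 2.53 with an adjusted p of 0.0199 to 0.228, under 0.05 only where the library left out was one of 4 days RFP, and it was 0.19 in AT2-like and primed AT2-like clusters (adjusted p = 0.713). For RFP against YFP over both times, Ctsd was at 0.94 ± 0.319 (adjusted p = 0.137), and passed in DESeq2 (0.0354) and with no filter on low counts (0.00375, and 0.00552 at 2 weeks). With 1 library left out Ctsd was at 0.684 to 1.23 with an adjusted p of 0.0237 to 0.335, under 0.05 only without 4 days RFP replicate 1. Lgmn, the asparagine-specific endosomal protease, was lower in every RFP than in every Red2Kras YFP library, at -0.61 ± 0.189 (adjusted p = 0.118). Beside it, 9.15% of all genes had RFP and YFP libraries without overlap. The Confetti libraries held Lgmn at 51.5 and 44.15 CPM, within the RFP range of 37.11 to 53.37 CPM.

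Of 15 genes of the CIITA enhanceosome and of interferon-gamma input all were tested and none passed in edgeR for RFP against YFP over both times or at 2 weeks. At an unadjusted p under 0.05 there were 1 higher and 2 lower over both times, beside 21.6% of all genes, and 1 of each at 2 weeks, beside 16.3%. Jak2, a kinase of the interferon-gamma receptor, was at 25.72, 29.97, 30.33 and 30.13 CPM in the YFP libraries, 25.12 and 25.09 in Confetti and 16.17, 15.59, 14.89 and 10.81 in the RFP libraries. The RFP libraries, 4 days RFP replicate 1 among them, thus lay below all wildtype ones without overlap. For RFP against Red2Kras YFP, 9.15% of all genes were free of overlap, and no such share was computed with Confetti included. The log2 fold change was -1.05 ± 0.177 over both times with an adjusted p of 0.0668, and -1.05 with 0.0293 under the replicate block. DESeq2 passed Jak2 with an adjusted p of 0.000161 over both times and 0.0116 at 2 weeks, and edgeR with no filter on low counts gave 0.000314 and 0.0112. Leaving out 1 library over both times gave -1.14 to -0.916 with an adjusted p of 0.0166 to 0.225 in edgeR, under 0.05 only without 4 days RFP replicate 1. Ifngr2, the other receptor chain, was at 0.47 ± 0.203 (adjusted p = 0.225) over both times. It was the 1 gene of this list that passed in 2 weeks RFP against Confetti, at 39.34 and 51.8 CPM against 19.2 and 15.26 CPM and a log2 fold change of 1.41 ± 0.276 (adjusted p = 0.0435). Leaving out 1 library gave 1.17 to 1.58 with an adjusted p of 0.024 to 0.213, under 0.05 for the same 2 libraries only, and the AT2-like and primed AT2-like clusters gave 1.14 (adjusted p = 0.0661). Over both times Rfx5, a protein of the X box complex, was at -0.44 ± 0.247 (adjusted p = 0.336; -0.56 to -0.228 with 1 library left out, the ends being without 4 days RFP replicate 1 and without 2 weeks YFP replicate 1).

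Of 3 turnover genes 2 were tested at 2 weeks and neither passed, with Cd83 at -1.13 ± 0.561 (edgeR, adjusted p = 0.349; -2.33 to -0.485 with 1 library left out, the ends being without 2 weeks RFP replicate 1 and without 2 weeks YFP replicate 1) and March8 at -0.20 ± 0.278 (adjusted p = 0.745). Of 6 co-stimulation and inhibition genes 2 were tested at 2 weeks, Cd274 at 0.07 ± 1.02 and Icosl at -0.03 ± 0.891, both with too few counts for a direction. Cd80, Cd86 and Cd40, the co-stimulatory genes of professional presenting cells, were under the filter on low counts.

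The mean standardised log2 CPM profile of Cd74, the 3 chain genes and the H2-DM genes was compared with 7019 other genes at 10 CPM or more over the 10 libraries. Of the 2 members outside the profile, Ciita had a Pearson r of 0.586 with it and Ctss -0.545. The most similar genes were Ldhb (r = 0.964), Hebp1 (0.947), Tinag (0.947), Rnf186 (0.942) and Sord (0.937). Ldhb, a lactate dehydrogenase subunit, was at 225.2 to 409.9 CPM in the wildtype libraries and at 308.1, 138.6, 145.8 and 125.1 CPM in the RFP ones, so it had the same outlying 4-day library. The most opposed were Polr3d (r = -0.96), Atp6v1c1 (-0.944), Cyb5r1 (-0.935), Ddx18 (-0.934) and Map2k4 (-0.933). Polr3d, a subunit of RNA polymerase III, was at 9.185 to 11.13 CPM in the wildtype libraries and at 9.654, 20.71, 17.8 and 20.74 CPM in the RFP ones. The libraries of 1 replicate number may share animals between colours, and all differ in cell makeup, so these values describe the 10 libraries only.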

How the data were processed

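Cells of 10 sorted libraries were measured by 10x single-cell RNA sequencing. The authors aligned reads to GRCm38 with Cell Ranger, and what they deposited are unnormalised UMI counts, 1 matrix a library. The version is 3.1.0 in the submitters' processing notes and 5.0.1 in the file headers, and the chemistry also differs between labels and methods. Neither was settled here. Barcodes under 1000 genes, over 50000 UMIs or over 15% mitochondrial UMIs were dropped from 42012, leaving 32698 cells. Cells were clustered with a graph on 30 components and Louvain (igraph 0.11.9, resolution 0.8), leaving out the 8 members and the other class II genes. Clusters were named from marker lists only where at least 3 markers were detected. No doublet caller was run. Alveolar cells with 0 Ptprc UMIs were summed per library, which left out 55 alveolar cells. Sums were tested with edgeR 4.0.16 (TMM, filterByExpr, quasi-likelihood F test, Benjamini-Hochberg over all genes tested, threshold 0.05) in R 4.3.3. Standard errors are the absolute log2 fold change divided by the square root of F. The fit of both times used the 8 Red2Kras libraries and a time term, and the other comparisons were contrasts over 6 groups and 10 libraries, so that Confetti, with 1 library per colour, is assumed to vary like the Red2Kras pairs. With 2 libraries per group, precision rests on the spread of few libraries more than on depth. In simulated counts for 2 weeks RFP against YFP (13188 genes) the test recovered 100% of 4-fold and 79.17% of 2-fold increases, and 91.49% and 73.47% of decreases of the same sizes. The simulated spread was a fixed value for all genes, not estimated from these libraries, and few genes were changed. The recovery therefore does not give the power of the real comparison. Alternatives were DESeq2 1.42.0, RLE factors, no filter, other gates, a replicate block and leaving out each library.

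Replicate numbers were checked for pairing: the replicate 1 to replicate 2 difference correlated over genes at 0.122 to 0.666 in all 6 pairs of Red2Kras groups, so the numbers were taken to pair the libraries. This rests on the data, since the labels do not state a shared animal or day. The main tests held no replicate term, so their p-values do not use this pairing. The replicate block was run as an alternative. Replicates of a group differed by more than counting noise (chi-square per degree of freedom 42 to 197). The members and gene lists were chosen with earlier results of these data known. Genes outside the members were named by rule: all other class II genes, the 3 genes with the smallest p at 2 weeks in each further list, and the 5 most similar and 5 most opposed profiles. Clusters and their leading genes, Sftpc, Tyrobp and the markers were named after their values were seen.

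The allele carried by the mutant cells is not reported here.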

Additional observations from a re-analysis of the deposited data

Results flagged for a closer look

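The 4 RFP and the 4 YFP Red2Kras libraries were each searched for a library far from the others, gene by gene, by Dixon's ratio of the gap to the nearest library over the whole range (16 sets of 4 libraries). Chance marks about 1 in 20 such sets. H2-Ab1 at 1075 CPM, H2-Eb1 at 852.8 CPM and H2-DMa at 127.7 CPM were each highest in 4 days RFP replicate 1, far above the other 3 RFP libraries, with ratios of 0.85, 0.842 and 0.899. It is the RFP library with 0.9962% DATP-like cells against 18.45% to 35.83% in the others. Ctss was highest in 2 weeks RFP replicate 2 at 1.404 CPM (57 UMIs, ratio 0.867), where Tyrobp had 120 UMIs. The part of these values in the levels was not tested.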

How the results depend on the processing

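No member passed the adjusted threshold in any of the 8 comparisons under the alternatives that keep all libraries (60 results, with the replicate block possible only among Red2Kras groups). Leaving out 1 library gave 0 to 1 members for RFP against YFP over both times and 0 in the other comparisons. The number of all genes passing did depend on the setting. For RFP against YFP over both times it was 0, against 1297 with DESeq2, 1944 with no filter on low counts, 9 with at most 1 immune marker UMI per cell, 35 in AT2-like and primed AT2-like clusters and 0 to 1468 without 1 library (1468 without 4 days RFP replicate 1). With the replicate block it was 929, Ctsl and Jak2 then passed over both times, and the block changed no other call. At 4 days it was 0, against 109 with DESeq2, 501 with no filter and 0 to 193 without 1 library. At 2 weeks it was 0, against 1 with RLE factors, 471 with DESeq2, 1379 with no filter, 17 in AT2-like and primed clusters and 0 to 1 without 1 library. For the change between times it was 0, against 48 with no filter. For 2 weeks RFP against Confetti it was 736, against 2200 with DESeq2, 3235 with no filter, 5 with no clustering, 239 in AT2-like and primed clusters and 1 to 1895 without 1 library. For 4 days RFP against Confetti it was 0, against 258, 822, 1 with at most 1 immune UMI, 16 in AT2-like and primed clusters and 0 to 327. For 2 weeks YFP it was 6, against 97, 530, 0 with no clustering and 0 to 8, and for 4 days YFP 4, against 12, 133, 0 with no clustering, 8 in AT2-like and primed clusters and 0 to 3. The causes were not tested.

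In AT2-like and primed clusters the log2 fold change over both times turned to 0.003182 for Ciita, 0.05219 for H2-DMb1, 0.01127 for H2-Eb1, 0.6104 for H2-DMb2, 0.1825 for Cd274 and -0.2337 for Ctsl. At 2 weeks it turned to 0.04154 for Ciita, 0.09195 for H2-DMb1, 0.6085 for H2-DMb2, 0.8796 for Icosl and -0.3529 for Ctsl, and against Confetti to 0.1736 for H2-DMa and 0.08234 for H2-Ab1. H2-DMb1 for 2 weeks RFP against Confetti turned to -0.09244 with at most 1 immune UMI. Icosl at 2 weeks turned to 0.02112 with no filter and 0.09564 with at most 1 immune UMI, and Cd274 to -3.024 with no clustering. Leaving out 1 library moved Ciita from -0.53 to 0.0579 at 2 weeks and from -0.0362 to 0.551 against Confetti, H2-DMb1 from -0.15 to 0.136 and H2-DMb2 from -0.0562 to 1.01 for 2 weeks RFP against Confetti, March8 from -0.295 to 0.000523 and Cd274 from -0.496 to 0.211 over both times, and Cd274 from -0.548 to 6.2 and Icosl from -1.02 to 0.839 at 2 weeks. H2-DMa over both times stayed at -0.818 to -0.472, with an adjusted p of 0.038 to 0.35. Low counts limit Ciita, Ctss, H2-Oa, H2-Ob and H2-Eb2. At other depths or gates 149 of 240 shares of cells left their counting interval.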
